A study of Drosophila melanogaster with 12 samples.

Results

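The Hippo pathway genes followed here are *yki*, *hpo*, *wts*, *sav*, *mats*, *ft*, *ds*, *fj*, *ex* and *Mer*, chosen by name as the upstream cadherins and their partners, the core kinases with their adaptors, and the coactivator they control. Probes annotated to 9 of the 10 listed genes were measured, 1 probe for each, among 12058 genes on the arrays. *ft* was not analysed here. The wing imaginal disc, the larval epithelium that forms the adult wing and part of the thorax, was taken from larvae of the third instar in the w118iso; 2iso; 3iso isogenic line. Cut discs (C) had lost a posterior sector and kept a 3/4 anterior fragment, while intact discs (NC) were left whole. Intact discs were measured over the first 24 hours alone. Both kinds were implanted into the abdomen of recently eclosed Canton S females, wild-type adults that served as living culture vessels at 25ºC. RNA of cut discs at 24 hours was set against 0 hours (C0→C24) and at 72 hours against 24 hours (C24→C72), and RNA of intact discs at 24 hours against 0 hours (NC0→NC24).

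The Hippo pathway restrains the growth of imaginal discs. Hippo and Warts form a kinase cascade which phosphorylates the coactivator Yorkie and keeps it out of the nucleus, and active Yorkie turns on genes for growth and survival. The cadherins Fat and Dachsous and the apical proteins Expanded and Merlin act above the kinases, and *ex* and *fj* are themselves known targets of Yorkie. In damaged wing discs Yorkie is known to be required for regenerative growth.

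Each value is the log2 ratio of the later over the earlier time on a 2-colour array, so it tells how far the RNA of a gene changed and nothing of its level. The direction is not written in the values. Dye-swapped arrays correlated above 0 in all 6 pairs, so both arrays of a pair run the same way, and replicate means correlated above 0 in each comparison. The changes in cut and intact discs over 24 hours, which share no array, correlated at 0.90 across 12058 genes, which are not independent replicates. In both periods of cut discs, later over earlier is the likely sense, read from the direction that the study states for genes such as *cbt*, *Gadd45* and *Sox15*. Sums over 72 hours and cut minus intact rest on this sense. Each comparison has 2 biological replicates, and each replicate was hybridized on a pair of arrays with the dyes swapped. Below, a gene rose or fell where limma, fitted over all genes, gave an adjusted p (Benjamini-Hochberg) under 0.05 and a change of at least 1.5-fold, which is 0.585 on the log2 scale. In whole discs, a different number of cells of a type and a different amount of RNA per cell cannot be told apart.

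The comparisons differ in precision. Dye-swapped arrays of a replicate correlated across genes at 0.72 and 0.84 in C0→C24, at 0.69 and 0.80 in NC0→NC24, and at 0.20 and 0.44 in C24→C72. Markers listed for other cell types moved as well, and which cells held this RNA was not tested. Of 12 hemocyte markers 9 rose and 0 fell in C0→C24, with medians of 0.85 and 0.90 in the replicates, against 3 up and 0 down in NC0→NC24, with medians of 0.28 and 0.19. Of 7 measured larval fat body markers 3 rose in C0→C24, 0 rose or fell in NC0→NC24, and 2 fell in C24→C72. In NC0→NC24 the replicates of these markers parted, with medians of -0.05 and 0.21. There *Lsp2* had -1.29 and -1.54 in replicate 1 and 0.62 and 0.65 in replicate 2. Of 12 wing disc markers 1, *nub*, fell in C0→C24 (-0.64) and 0 in NC0→NC24. In NC0→NC24 *nub* had -0.51 (limma adjusted p = 0.00349), short of 1.5-fold. The medians of the wing disc markers were -0.18 in C0→C24 and -0.17 in NC0→NC24. Of 10 muscle markers 1 rose in C0→C24, 1 in NC0→NC24 and 0 in C24→C72, and of 5 adult female markers 0, 0 and 1. In C24→C72 the medians of the adult female markers were 0.88 in replicate 1 and 0.22 in replicate 2. *Yp3*, the highest of them there, had 4.09 and 2.51 in replicate 1 and -0.31 and 1.15 in replicate 2, without a call. The part of these shifts in the results below was not tested, and ratios without levels cannot show whether a tissue's markers are present.

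Over the first 24 hours *yki* was the 1 measured member that rose, and it rose in both kinds of disc. On the 4 arrays of C0→C24 its log2 ratio was 0.71 and 0.71 in replicate 1 and 0.80 and 0.15 in replicate 2. On the 4 arrays of NC0→NC24 it was 0.63 and 0.68 in replicate 1 and 0.64 and 0.65 in replicate 2. The intact discs thus gave nearly the same value every time, whereas in cut discs 3 arrays lay above all intact ones and the other far below them. The change was 0.59 ± 0.09 in C0→C24 (SE, n = 2 replicates, limma adjusted p = 0.00118), or 1.51-fold, and 0.65 ± 0.09 in NC0→NC24 (adjusted p = 0.000972), or 1.57-fold.

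Among all genes 6.12% rose and 4.94% fell in C0→C24, beside 1 and 0 of 9 members. In NC0→NC24 5.14% rose and 3.85% fell, again beside 1 and 0 of 9, so that the count of members is near the background in both. 4.34% of genes rose in both comparisons. In C0→C24 *yki* stood only just above the 1.5-fold line. Without replicate 1 of the cut discs its change was 0.47 (adjusted p = 0.0513) and the call was lost, and with arrays scaled to a common spread it was 0.584, under the threshold of 0.585. Without the array at 0.15, an alternative chosen after seeing the data, it was 0.75 (adjusted p = 0.000188).

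No array gave *yki* a ratio below 0 after 24 hours. In C24→C72 its ratios were 0.35 and 0.30 in replicate 1 and 0.33 and 0.15 in replicate 2, all above 0, with a change of 0.28 ± 0.09 (adjusted p = 0.0847) that did not pass. Summed over both periods, cut discs at 72 hours had 0.88 ± 0.12 more *yki* RNA than at 0 hours on the log2 scale, or 1.83-fold (adjusted p = 0.00114). *yki* and *Mer* were above 0 on all 12 arrays, as were 6.07% of all genes.

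**Figure D1:**
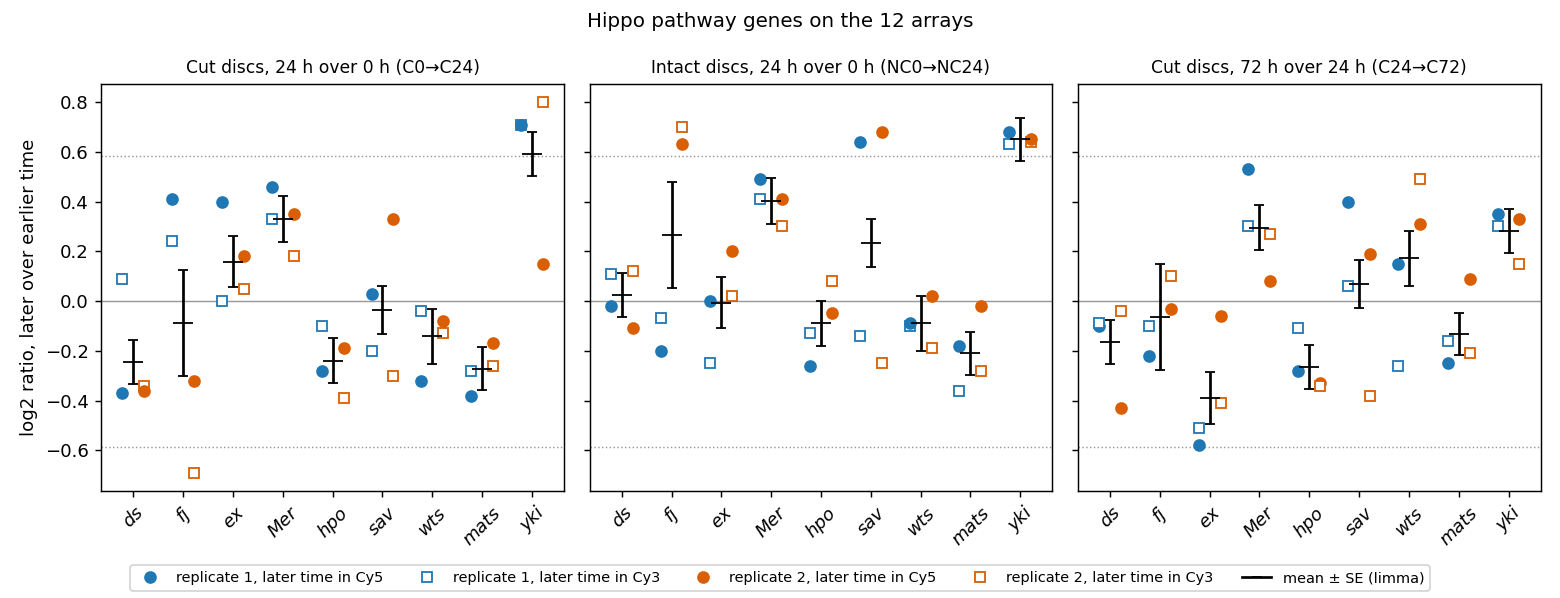
Log2 ratio of later over earlier time (vertical axis) for the 9 measured Hippo pathway genes on each of the 12 arrays, with cut discs over the first 24 hours left, intact discs in the middle and cut discs from 24 to 72 hours right. Filled circles have the later time in Cy5 and open squares in Cy3, colours mark the replicate, black bars are the mean ± SE, and dotted lines mark 1.5-fold. *yki* stands above 0 on all 12 arrays, the replicates of *fj* lie apart, and the dyes split *sav*.

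*Mer*, which encodes the FERM-domain protein Merlin at the apical cortex, had ratios of 0.33 and 0.46 in replicate 1 and 0.18 and 0.35 in replicate 2 of C0→C24. In NC0→NC24 they were 0.41 and 0.49, and 0.30 and 0.41. The ranges of cut and intact discs overlapped, and none of the 8 ratios reached 0.585. The change was 0.33 ± 0.09 in C0→C24 (adjusted p = 0.0266) and 0.40 ± 0.09 in NC0→NC24 (adjusted p = 0.0128), both past the adjusted p and short of 1.5-fold. The pass was lost without either replicate of the comparison (adjusted p up to 0.287 and 0.180). At any fold, 2 of 9 members (*yki* and *Mer*) were above 0 with an adjusted p under 0.05 in each comparison, beside 13.9% of all genes in C0→C24 and 12% in NC0→NC24.

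From 24 to 72 hours *Mer* had 0.53 and 0.30 in replicate 1 and 0.08 and 0.27 in replicate 2, with a change of 0.29 ± 0.09 (adjusted p = 0.0833). Over the whole 72 hours *Mer* rose by 0.62 ± 0.13, or 1.54-fold (limma adjusted p = 0.00769). This call ended without replicate 1 of C0→C24 (0.56, adjusted p = 0.0753) and without replicate 1 of C24→C72, where the change of 0.50 fell short of 1.5-fold. It ended too without the C0→C24 array on which *yki* was low (0.5825, against the threshold of 0.585). Over 72 hours 9.43% of all genes rose and 7.4% fell, beside 2 (*yki* and *Mer*) and 0 of 9 members. At any fold 14% of all genes were above 0 with an adjusted p under 0.05, beside the same 2 members. Any error in the 24-hour RNA enters the 2 periods with opposite signs and cancels in this sum as far as the same extract was used.

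*ex*, the gene of the FERM-domain protein Expanded that works beside Merlin, had values near 0 in the first 24 hours. Its ratios in C0→C24 were 0.00 and 0.40 in replicate 1 and 0.05 and 0.18 in replicate 2. In NC0→NC24 the replicate means were -0.12 and 0.11, on either side of 0. The change was 0.16 ± 0.10 in cut discs (adjusted p = 0.336) and -0.01 ± 0.10 in intact discs (adjusted p = 0.972).

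In C24→C72 *ex* had -0.58 and -0.51 in replicate 1 and -0.06 and -0.41 in replicate 2, below 0 on all 4 arrays. The change of -0.39 ± 0.10 has an adjusted p of 0.0502, which just misses the threshold, and is less than 1.5-fold. It was the lowest value of any measured member in that period, while *Mer* had the highest. 0 of 9 members rose or fell in C24→C72, in a period when 1.36% of all genes rose and 1.58% fell, and 4 of 9 members had an unadjusted p under 0.05, beside 25.7% of all genes.

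*ds* encodes Dachsous, the atypical cadherin that binds Fat on the neighbouring cell. In C0→C24 it had 0.09 and -0.37 in replicate 1 and -0.34 and -0.36 in replicate 2. In NC0→NC24 the ratios were 0.11 and -0.02, and 0.12 and -0.11. 3 arrays of cut discs were lower than every array of intact discs, and 1 lay within their range. The change was -0.24 ± 0.09 in cut discs (adjusted p = 0.0761) and 0.03 ± 0.09 in intact discs (adjusted p = 0.887). In C24→C72 all 4 arrays were below 0, between -0.43 and -0.04.

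*fj* encodes Four-jointed, a Golgi kinase that phosphorylates the cadherin domains of Fat and Dachsous. Its replicates disagreed more than those of nearly any gene. In C0→C24 replicate 1 had 0.24 and 0.41, and replicate 2 had -0.69 and -0.32. In NC0→NC24 replicate 1 had -0.07 and -0.20, and replicate 2 had 0.70 and 0.63. Both arrays of a replicate thus pointed the same way each time, and the 2 replicates of each kind of disc pointed opposite ways.

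The mean of *fj* was -0.09 ± 0.59 in C0→C24 and 0.27 ± 0.57 in NC0→NC24 (SD, n = 2 replicates each). Its standard error in the fit, 0.21, stands at the 99.1 percentile of all genes, whose median is 0.09. With this spread no direction can be given to *fj* (adjusted p = 0.834 in cut and 0.463 in intact discs). From 24 to 72 hours its ratios lay between -0.22 and 0.10.

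*hpo*, in the core of the cascade, is the gene of the Hippo kinase that phosphorylates Warts. It had -0.10 and -0.28 in replicate 1 and -0.39 and -0.19 in replicate 2 of C0→C24. In NC0→NC24 it had -0.13 and -0.26, and 0.08 and -0.05, so that the ranges of cut and intact discs overlapped. In C24→C72 it had -0.28 and -0.11, and -0.33 and -0.34. The changes were -0.24 ± 0.09 (adjusted p = 0.0860), -0.09 ± 0.09 (adjusted p = 0.568) and -0.27 ± 0.09 (adjusted p = 0.107).

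*mats*, whose Mob-family product activates Warts, had values below 0 on most arrays as well. It had -0.28 and -0.38 in replicate 1 and -0.26 and -0.17 in replicate 2 of C0→C24. In NC0→NC24 the ratios were -0.36 and -0.18, and -0.28 and -0.02, which overlap those of cut discs. In C24→C72 they were -0.25 and -0.16, and 0.09 and -0.21, with the 1 array above 0 in replicate 2, and the change was -0.13 ± 0.09 (adjusted p = 0.377). In C0→C24 the change of -0.27 ± 0.09 passed the adjusted p (0.0457) and not 1.5-fold, and in intact discs it was -0.21 ± 0.09 (adjusted p = 0.127). The pass in C0→C24 was lost in 8 of 17 alternatives, with adjusted p between 0.0127 and 0.363 over all of them, among them the fit with a replicate block (0.0545) and the comparison fitted alone (0.0629). *mats* was the 1 member of 9 below 0 with an adjusted p under 0.05 in C0→C24, beside 12.9% of all genes, and 0 members were so in NC0→NC24, beside 10.3%. *hpo* and *mats* were each below 0 on 11 of the 12 arrays, a share that 8.67% of all genes reached.

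Over 72 hours in cut discs *hpo* came to -0.51 ± 0.13 (adjusted p = 0.0189), *ds* to -0.41 ± 0.13 (adjusted p = 0.0423) and *mats* to -0.41 ± 0.12 (adjusted p = 0.0391). All 3 passed the adjusted p with a change of less than 1.5-fold. Of 17 alternatives, *hpo* lost this pass in 3, *ds* in 8 and *mats* in 7. At any fold, 11.3% of all genes lay below 0 with an adjusted p under 0.05, beside these 3 of 9 members. In cut discs, *yki* RNA was higher at 72 hours than at 0 hours, while the values of *hpo* and *mats* lay below 0 without a call. The other core genes stayed near 0, *wts* at 0.03 ± 0.16 (adjusted p = 0.916) and *sav* at 0.03 ± 0.14 (adjusted p = 0.896). Above the kinases *Mer* rose, and *ex* had -0.23 ± 0.15 (adjusted p = 0.297) and *fj* -0.15 ± 0.30 (adjusted p = 0.770). The core genes thus did not move together.

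*wts* encodes the Warts kinase, which phosphorylates Yorkie directly. Its ratios were between -0.32 and -0.04 in C0→C24, all below 0, and between -0.19 and 0.02 in NC0→NC24. The change was -0.14 ± 0.11 in cut discs (adjusted p = 0.428) and -0.09 ± 0.11 in intact discs (adjusted p = 0.655). In C24→C72 the replicates parted, with 0.15 and -0.26 in replicate 1 and 0.31 and 0.49 in replicate 2, and the change was 0.17 ± 0.11 (adjusted p = 0.369).

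**Figure D2:**
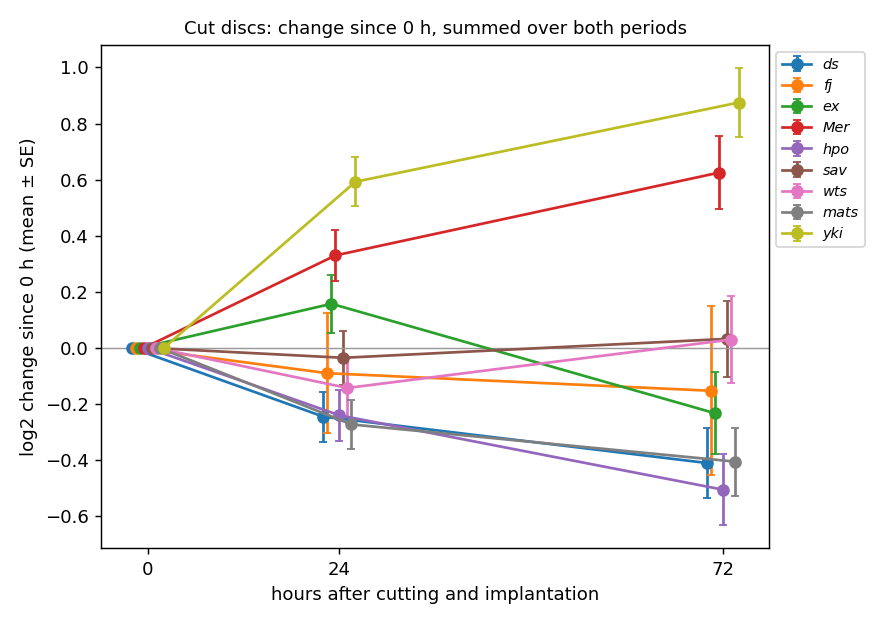
Log2 change since 0 hours (vertical axis, mean ± SE) of the 9 genes in cut discs at 0, 24 and 72 hours (horizontal axis, points set slightly apart). The value at 72 hours is the sum of C0→C24 and C24→C72, *yki* and *Mer* end highest at 0.88 and 0.62, and *hpo* ends lowest at -0.51.

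*sav*, the gene of the scaffold protein Salvador that joins Hippo to Warts, followed the dyes. With the later time in Cy5 its ratios were 0.03 and 0.33 in C0→C24, 0.64 and 0.68 in NC0→NC24, and 0.40 and 0.19 in C24→C72. With the later time in Cy3 they were -0.20 and -0.30, -0.14 and -0.25, and 0.06 and -0.38. All 6 arrays with the later time in Cy5 were thus above 0, and 5 of 6 arrays with it in Cy3 were below 0.

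A fit of all 12 arrays with a dye term gave *sav* a dye effect of 0.29 ± 0.05 (adjusted p = 0.00859), larger in size than in 97.4% of genes. This is the distance of either dye order from their common mean, so the gap between the dye orders is larger. Of all genes 3.91% had a dye effect with an adjusted p under 0.05, and *sav* was the 1 member of 9 that had. Since the dyes were balanced in each replicate, the means of *sav* stayed small, at -0.03 ± 0.10 in C0→C24 (adjusted p = 0.861), 0.23 ± 0.10 in NC0→NC24 (adjusted p = 0.133) and 0.07 ± 0.10 in C24→C72 (adjusted p = 0.709). Values of *sav* on single arrays cannot be read as change over time.

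**Figure D3:**
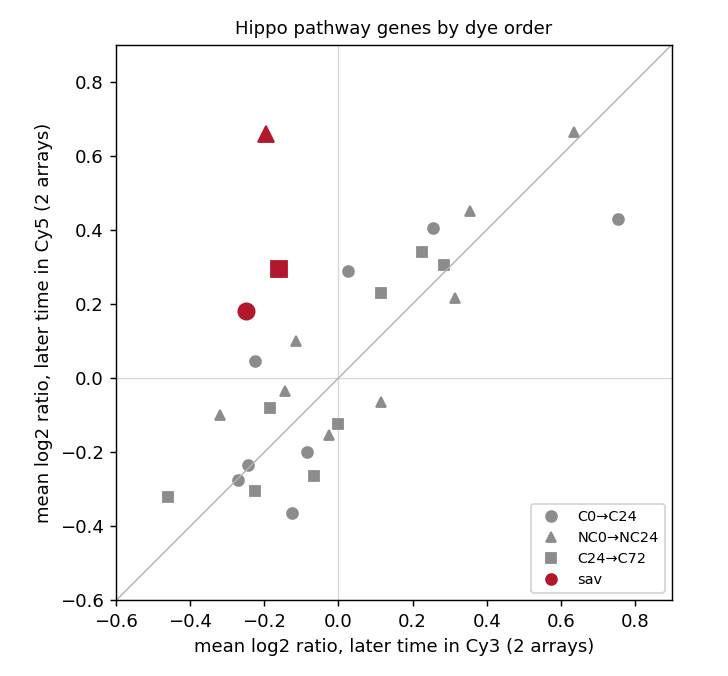
Mean log2 ratio of the 2 arrays with the later time in Cy5 (vertical axis) against that of the 2 arrays with it in Cy3 (horizontal axis), for each gene and comparison. On the line both dye orders give the same value, and the 3 red points of *sav* lie farthest above it, at 0.43 in C0→C24, 0.86 in NC0→NC24 and 0.46 in C24→C72 (Cy5 minus Cy3).

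No array sets cut against intact discs, so the intact discs' change over 24 hours was subtracted from the cut discs' change, and a gap between the RNA of the starting discs would enter the result. 0 of 9 members passed the test of this difference in limma, 0 at an unadjusted p under 0.05, beside 0.0746% of all genes called and 5.94% at that unadjusted p. For *yki* the difference was -0.06 ± 0.12, with a 95% interval from -0.34 to 0.23. For *Mer* it was -0.07 ± 0.13 (-0.37 to 0.22). The interval of *yki* lies within 1.5-fold on either side.

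*ds* had a difference of -0.27 ± 0.13 (-0.56 to 0.02, unadjusted p = 0.0609, adjusted p = 0.872), and *sav* had -0.27 ± 0.14 (-0.58 to 0.04, adjusted p = 0.902). *fj* had the lowest value at -0.35 ± 0.30, and its interval from -1.04 to 0.33 leaves room for a change of 2-fold. *ex* was the 1 member above 0, at 0.16 ± 0.15. In all, 8 of 9 members had a difference below 0, as had 52.7% of all genes.

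**Figure D4:**
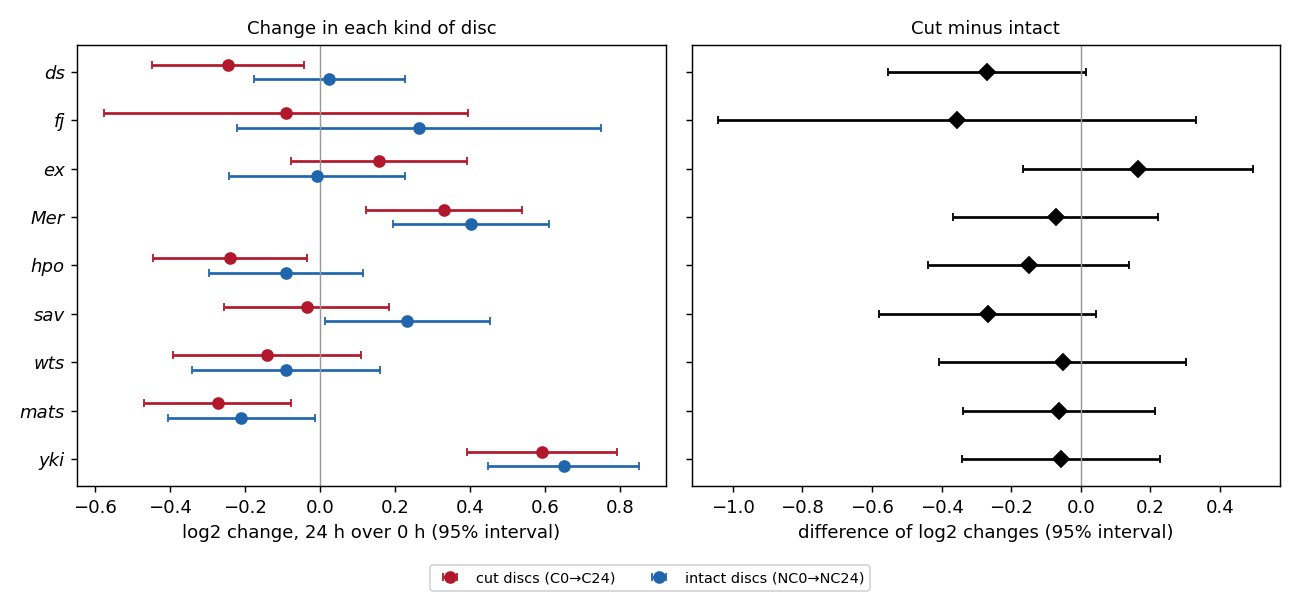
Left, log2 change over the first 24 hours (horizontal axis) of the 9 genes in cut discs (red) and intact discs (blue). Right, the difference cut minus intact. Bars are 95% intervals from the fit, and on the right all 9 of them contain 0.

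Other genes of the pathway were described from lists chosen by their known roles. Partners of the Fat and Dachsous branch had 6 of 8 genes measured, of which 0 rose or fell in C0→C24, NC0→NC24 or C24→C72. *Fbxl7*, whose F-box product acts below Fat, had the smallest adjusted p in cut discs, at -0.48 ± 0.11 (adjusted p = 0.0132). 3 of its arrays lay between -0.35 and -0.30 and the other at -0.95. The smallest adjusted p in intact discs was that of *app* (-0.26, adjusted p = 0.0950), which encodes a palmitoyltransferase of the Fat branch, and in C24→C72 that of *lft* (0.28, adjusted p = 0.134). The medians of this list were -0.09 in C0→C24, -0.11 in NC0→NC24 and 0.15 in C24→C72, beside -0.01, -0.00 and 0.03 over all genes.

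Apical and junctional regulators had 20 of 22 genes measured. *kst*, which encodes the apical spectrin Karst, rose in intact discs by 0.61 ± 0.08 (adjusted p = 0.000737), with ratios of 0.82 and 0.49 in replicate 1 and 0.73 and 0.41 in replicate 2. In cut discs its ratios were 0.45 and 0.09, and 0.44 and 0.14, and the change was 0.28 ± 0.08 (adjusted p = 0.0282). The difference, -0.33 ± 0.11, has an adjusted p of 0.608. *Tao*, the gene of a kinase that phosphorylates Hippo, had 0.41 ± 0.09 in C0→C24 (adjusted p = 0.00771), short of 1.5-fold. *Schip1*, whose product recruits Tao to the membrane, rose over the 72 hours by 0.72 ± 0.13 (adjusted p = 0.00359). It was the 1 of 20 that did, beside 9.43% of all genes. In all, 0 of 20 rose in C0→C24, 1 in NC0→NC24 and 0 in C24→C72, 0 fell in any of these, and the medians were -0.04, 0.03 and 0.09.

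Genes that restrain the Hippo kinases or act against them had 12 of 15 measured. *Strip*, which encodes the organizer of the STRIPAK phosphatase complex that inactivates Hippo, fell in cut discs by 0.60 on the log2 scale (SE 0.08, adjusted p = 0.000783). Its ratios there were -0.55 and -0.68 in replicate 1 and -0.79 and -0.39 in replicate 2, against -0.53 and -0.27, and -0.37 and -0.09 in intact discs, so that the groups overlap. In intact discs the change was -0.31 ± 0.08 (adjusted p = 0.0250), and the difference of -0.29 has an adjusted p of 0.795.

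*Hipk*, the gene of a kinase known to promote Yorkie activity, rose by 0.62 ± 0.18 in cut discs (adjusted p = 0.0342) and by 0.65 ± 0.18 in intact discs (adjusted p = 0.0321). Its 8 ratios of the first 24 hours lay between 0.42 and 0.89. In C24→C72 it had 0.18 and 0.03 in replicate 1 and 0.33 and 1.80 in replicate 2. The array at 1.80 sets its mean of 0.59 there (adjusted p = 0.0830). Over 72 hours, a sum that includes this array, *Hipk* rose by 1.20 ± 0.26 (adjusted p = 0.00880). It was the 1 of 12 that did, beside 9.43% of all genes. *Rassf*, whose product competes with Salvador for Hippo, had 0.34 ± 0.09 in C24→C72 (adjusted p = 0.0473), short of 1.5-fold. The list as a whole had 1 up and 1 down in C0→C24, 1 up and 0 down in NC0→NC24 and 0 in C24→C72, with medians of -0.07, 0.04 and 0.16.

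Partners of Yorkie had 9 of 11 measured, all but *sd* and *hth*. Of these 0 rose or fell in C0→C24, NC0→NC24 or C24→C72, with medians of -0.16, -0.15 and 0.04. *Wbp2*, whose product binds the WW domains of Yorkie, had 0.43 ± 0.11 in cut discs (adjusted p = 0.0175) and 0.48 ± 0.11 in intact discs (adjusted p = 0.0129), and rose over 72 hours by 0.59 ± 0.15 (adjusted p = 0.0230). *14-3-3epsilon*, one of the genes for the proteins that hold phosphorylated Yorkie in the cytoplasm, was below 0 on all 12 arrays. Of all genes 8.67% were below 0 on at least 11 of 12. *14-3-3epsilon* fell over 72 hours by 0.65 on the log2 scale (SE 0.13, adjusted p = 0.00699). In that sum 1 of 9 partners rose and 1 fell, beside 9.43% and 7.4% of all genes.

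Known targets of Yorkie, apart from *ex*, *fj* and *Mer*, had 9 of 18 measured. *Diap1*, *Myc*, *CycA*, *wg*, *vn*, *upd3*, *Ser*, *dally* and *kibra* were not, so nothing can be said of them. Of the 9 measured targets 0 rose or fell in C0→C24, NC0→NC24 or C24→C72, and the medians were 0.06, 0.03 and 0.01. *Krn*, a ligand gene of the EGF receptor, came nearest, with 0.43 ± 0.09 in cut discs (adjusted p = 0.00849), the same 0.43 in intact discs (adjusted p = 0.0104) and 0.40 ± 0.09 in C24→C72 (adjusted p = 0.0315). Over 72 hours *Krn* rose by 0.83 ± 0.13, or 1.78-fold (adjusted p = 0.00198). It was the 1 of 9 targets that did, beside 9.43% of all genes. The cyclin gene *CycB* went the other way, short of 1.5-fold. It had -0.425 ± 0.11 in intact discs (adjusted p = 0.0271) and -0.55 ± 0.16 over 72 hours (adjusted p = 0.0364). At any fold, 3 of 9 targets passed the adjusted p above 0 and 1 below in NC0→NC24, beside 12% and 10.3% of all genes. *E2f1*, a cell cycle transcription factor, had the smallest adjusted p of the list for cut minus intact discs, at 0.29 ± 0.16 (adjusted p = 0.928).

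**Figure D5:**
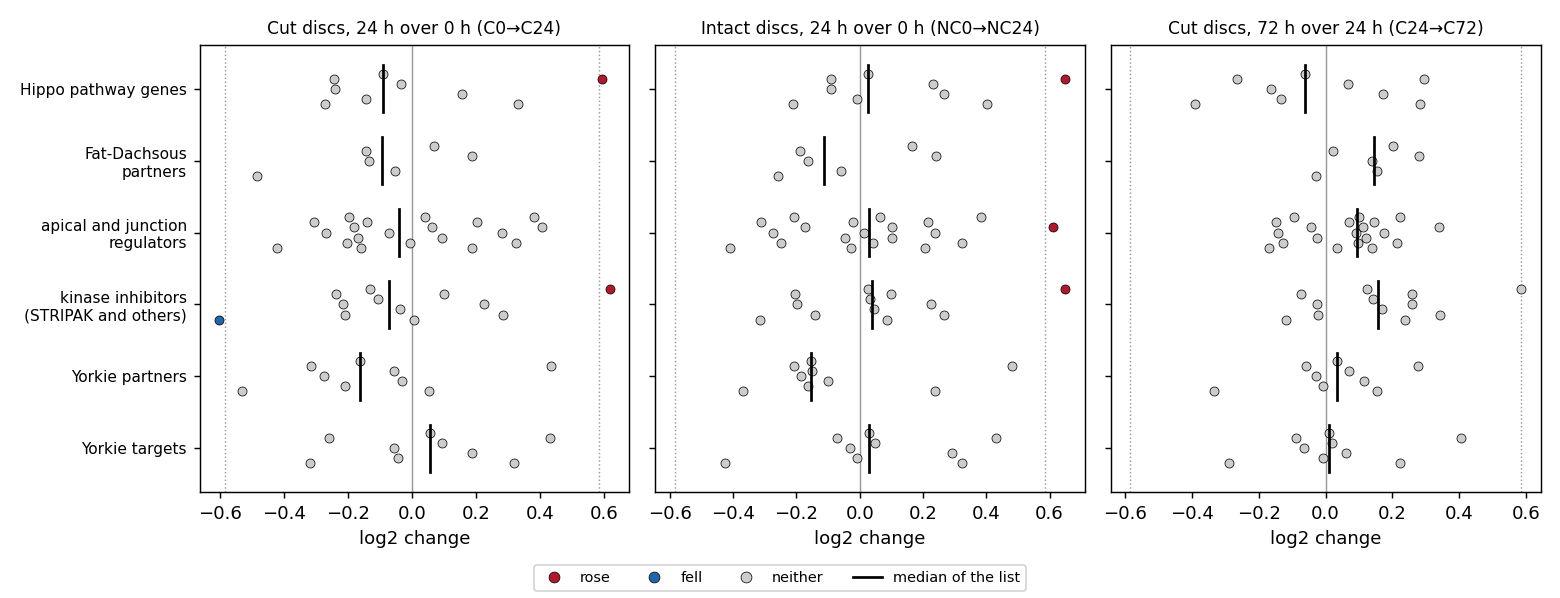
Log2 change (horizontal axis) of the measured genes of each list (rows), in cut discs over 24 hours (left), intact discs over 24 hours (middle) and cut discs from 24 to 72 hours (right). Red points rose, blue points fell, grey points did neither, bars are medians, and dotted lines mark 1.5-fold. *yki*, *Hipk* and *kst* are the red points, and *Strip* is the blue one.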

How the data were processed

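RNA of wing discs was compared on 12 two-colour oligonucleotide arrays, 4 for each of 3 comparisons. The authors scanned the arrays, processed them with limma and normalized each set of 4 by the mad method of OLIN, and the deposited values are log2 ratios. The number of arrays limits the precision. The 24-hour RNA of cut discs was the common reference, so C0→C24 and C24→C72 share it with opposite signs.

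Probes with 1 gene symbol, updated through a Release 6 table of names, were averaged per gene (13164 of 16416 probes, 12058 genes). The 2 dye-swapped arrays of a replicate were averaged, and limma 3.58.1 in R 4.3.3 was fitted to the 6 replicate means of all 3 comparisons, with Benjamini-Hochberg adjustment over all genes. Cut minus intact and the sum over 72 hours were contrasts of this fit. Simulated data, with the same spread in all comparisons, tested it for C0→C24, NC0→NC24 and cut minus intact. The sum over 72 hours was not tested in this way. Replicates stand for separate RNA extractions. The fit gave each gene a spread shared by the 3 comparisons, with 3 residual degrees of freedom and moderation across genes. SE and p-values rest on it, and not on the 2 replicates of 1 comparison alone. For *yki*, the SD of the replicates was 0.17 in C0→C24 and 0.007 in NC0→NC24, while the SE was 0.09 in both. All members were named. In each other list up to 3 called genes a comparison, or else the gene with the smallest adjusted p, were open to naming. Not all of these are named above, and *CycB* and *Yp3* were named besides them. Members and lists were chosen with earlier results of these data known. Alternatives changed the unit of replication, dye term, joint fit, replicate block, scaling, probe summary, threshold, moderation and replicates.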

Additional observations from a re-analysis of the deposited data

Results flagged for a closer look

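Among 126 sets of 4 arrays, from 42 genes, 6 held an array that stood far from the others, where chance alone gives about 1 in 20. *yki* had 0.15 on 1 array of C0→C24, with the others between 0.71 and 0.80. *ds* had 0.09 on 1 array of C0→C24, with the others between -0.37 and -0.34, and -0.43 on 1 array of C24→C72, with the others between -0.10 and -0.04. *Fbxl7* had -0.95 in C0→C24 (others -0.35 to -0.30) and *Hipk* had 1.80 in C24→C72 (others 0.03 to 0.33). The hemocyte marker *crq* had -0.17 in C24→C72 (others -0.40 to -0.37).

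The change in cut discs differed from that in intact discs by limma's test of the difference in 2 hemocyte markers, *eater* by 1.29 (adjusted p = 0.0268) and *He* by 1.01 (adjusted p = 0.0404). Both calls ended with a replicate block (adjusted p = 0.0737 and 0.0809) and without any 1 of the 4 replicates of these comparisons (adjusted p between 0.190 and 0.475). In all, *eater* lost its call in 5 of 17 alternatives and *He* in 7.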

How the results depend on the processing

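With 2 replicates a comparison, and dye pairs that correlated poorly in C24→C72, small changes of these genes could be missed. The number of members called was 0 in C0→C24 with arrays scaled to a common spread, 0 at 2-fold and 3 with no fold threshold, 0 and 2 in NC0→NC24 at these thresholds, and 0 and 5 over 72 hours. Genes called at these thresholds numbered 425 and 3222 in C0→C24, 308 and 2692 in NC0→NC24, 67 and 1096 in C24→C72, and 775 and 3050 over 72 hours. Fitted alone, C24→C72 had 27 genes called, against 354 in the joint fit. Across genes the SD of the difference between replicates was 0.29 in C24→C72, 0.21 in C0→C24 and 0.22 in NC0→NC24. The joint fit shares 1 spread per gene among them, so it may understate the error in C24→C72 and in the sum over 72 hours. For cut minus intact, with 9 genes called, the count was 15 fitted alone, 5 with centred arrays and 4 with each probe on its own. With the replicate number as a block it was 0, and 17 with the sign of the block reversed in C24→C72. The labels do not say whether equal numbers pair the samples. Deviations of same-numbered replicates correlated at -0.12 between C0→C24 and NC0→NC24, which does not settle it. The block changed the call of 0 members. Below 1.5-fold, *mats* in C0→C24 (adjusted p = 0.0545) and *ds* over 72 hours (0.0508) no longer passed the adjusted p with it. Leaving out the array on which *yki* was low, chosen after seeing the data, gave 69 genes for cut minus intact, 1 member over 72 hours, a difference of 0.10 for *yki* and -0.12 for *sav* over 72 hours.

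Leaving out each replicate in turn, members called ranged from 0 to 1 in C0→C24 and 1 to 2 over 72 hours, and genes called for cut minus intact from 0 to 15. Directions turned in the following, among them the lowest cut minus intact value, that of *fj*. *fj* ranged from -0.51 to 0.33 in C0→C24, -0.14 to 0.67 in NC0→NC24, -0.16 to 0.035 in C24→C72, -0.77 to 0.06 for cut minus intact and -0.568 to 0.26 over 72 hours. *sav* ranged from -0.085 to 0.015 in C0→C24, -0.10 to 0.23 in C24→C72 and -0.13 to 0.20 over 72 hours. *wts* ranged from -0.055 to 0.40 in C24→C72 and -0.20 to 0.26 over 72 hours. In NC0→NC24 *ex* ranged from -0.12 to 0.11 and *hpo* from -0.195 to 0.015. The difference of *yki* ranged from -0.18 to 0.06. The cause was not tested.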
